A study of Mus musculus with 2 samples.

Results

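The Purkinje cell lineage genes described here were 10 genes, Skor2, Corin, Calb1, Calb2, Pcp2, Pcp4, Kirrel2, Car8, Itpr1 and Plcb4, taken by symbol from the 43346 Ensembl genes listed in each library's table. The rule names them by symbol and uses no measured value. The RNA came from whole hindbrain of B6NCrl mouse embryos of both sexes at embryonic day 12.5 (e12.5), and the labels name no mutant allele and no treatment. Replicate 1 was a pool of 120 embryos and replicate 2 a pool of 88, so each value averages many animals and all hindbrain cell types. The 2 libraries are biological replicates of 1 group. No contrast between conditions existed, and each test below compares these 2 libraries.

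Purkinje cells are the output neurons of the cerebellar cortex and release GABA. In the mouse they are born around this age from a ventricular zone of the cerebellar anlage that expresses Ptf1a, then migrate outward while they begin to express Skor2, Foxp2, Lhx1, Lhx5 and calbindin. The mature cell relies on a pathway in which Gq proteins act through phospholipase C beta 4 to make inositol trisphosphate (IP3), and the IP3 receptor Itpr1 then releases calcium from internal stores. Most of these genes are also used outside the Purkinje lineage, so a level in whole hindbrain cannot be assigned to Purkinje cells. In such bulk samples fewer cells of a type and less RNA per cell cannot be told apart.

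Promoter sequence is shown for Kirrel2 and Corin, the pair of genes whose levels differed most between the libraries by the tests below. It is also shown for Pcp4 and Pcp2, the highest and the lowest of the 10 by mean TPM. The windows are RefSeq's on GRCm38.p6 and run 5′ to 3′ on the gene's strand, from 250 bases before to 50 after the RefSeq start site, and 5 of the 10 genes had one. They lie at chr7:30457466-30457765 (minus strand) for Kirrel2, chr5:72504491-72504790 (minus) for Corin, chr16:96467356-96467655 (plus) for Pcp4 and chr8:3625498-3625797 (minus) for Pcp2. Capitals mark matches on either strand to TGGGAAA, the TC-box, and to CACCTG, 1 form of the E-box CANNTG. Both kinds of element are known parts of sites bound by the Ptf1a complex, which directly activates Kirrel2 in the developing mouse nervous system.
Kirrel2: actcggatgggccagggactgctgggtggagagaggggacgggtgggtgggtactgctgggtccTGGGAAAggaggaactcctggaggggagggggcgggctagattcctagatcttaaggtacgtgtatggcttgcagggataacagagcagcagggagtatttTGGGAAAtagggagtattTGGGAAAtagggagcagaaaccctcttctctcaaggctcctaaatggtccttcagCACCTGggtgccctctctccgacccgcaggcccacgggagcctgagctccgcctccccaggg
Corin: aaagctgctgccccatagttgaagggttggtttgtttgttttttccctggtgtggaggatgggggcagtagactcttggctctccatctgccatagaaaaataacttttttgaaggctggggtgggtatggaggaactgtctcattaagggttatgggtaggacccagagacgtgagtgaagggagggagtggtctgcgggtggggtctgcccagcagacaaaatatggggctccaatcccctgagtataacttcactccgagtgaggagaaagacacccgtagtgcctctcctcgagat
Pcp4: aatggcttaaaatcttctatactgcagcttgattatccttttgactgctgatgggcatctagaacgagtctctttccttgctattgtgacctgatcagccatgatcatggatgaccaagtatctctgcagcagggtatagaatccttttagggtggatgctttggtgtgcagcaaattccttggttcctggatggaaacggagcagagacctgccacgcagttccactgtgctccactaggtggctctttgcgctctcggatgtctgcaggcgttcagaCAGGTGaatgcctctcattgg
Pcp2: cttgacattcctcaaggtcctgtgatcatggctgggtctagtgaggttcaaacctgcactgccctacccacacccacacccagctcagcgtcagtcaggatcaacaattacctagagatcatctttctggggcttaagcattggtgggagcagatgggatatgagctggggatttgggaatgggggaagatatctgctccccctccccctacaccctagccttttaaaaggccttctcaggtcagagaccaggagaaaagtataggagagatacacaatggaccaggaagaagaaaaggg
The Kirrel2 window held 3 TC-boxes, at -186, -85 and -67 counted from the start site, and 1 CACCTG at -12. Among all 32851 windows of the same length, 8.06% held a TC-box, 0.432% held 2 or more and 1.61% held both a TC-box and CACCTG. The Pcp4 window held 1 match to CACCTG, read as CAGGTG on the strand shown, at 29, and 20.2% of all windows held one. The Corin and Pcp2 windows held neither, although each of the 4 had 1 match to CANNTG, as did 72.3% of all windows at least once. The Kirrel2 start site used by RefSeq lay 175 nt inside the GENCODE gene, and the Corin one 67 nt before the GENCODE start. The Kirrel2 matches at -85, -67 and -12 therefore fell within the GENCODE gene. Only the TC-box at -186 lay before the GENCODE start. These windows describe letters near a start site and not binding.

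Of the 10, 9 were present at 1 TPM or more in both libraries; TPM is an abundance per transcript length on a fixed total per library. Pcp2 was the exception. With the posterior mean TPM that the authors also deposited, all 10 reached 1 TPM and Pcp2 averaged 1.23 TPM. That value lay above the 95% counting intervals of Pcp2, 0.135 to 0.616 TPM in replicate 1 and 0.278 to 1.16 TPM in replicate 2. Posterior mean shares also went to Pcp2 transcripts with 0 counts in both libraries, such as Pcp2-203 with 15.4% and 12.61%. Its counts therefore do not show Pcp2 at 1.23 TPM. The median of the 10 was 8.82 TPM in replicate 1 and 6.75 TPM in replicate 2. The gap between these medians, which fall between Corin and Itpr1, does not describe the 10. Their median log2 ratio of replicate 1 over replicate 2 was -0.059, and they summed to 168 and 178 TPM. Levels of the 10 spread over more than 2 orders of magnitude. Pcp4 stood 263-fold above Pcp2 in replicate 1 and 158-fold in replicate 2. By posterior mean TPM the spread was narrower, with Pcp4 averaging 83.4 TPM and Pcp2 1.23 TPM. There Skor2, averaging 1.225 TPM, was as low as Pcp2. By mean TPM the order was Pcp4, Plcb4, Calb2, Kirrel2, Corin, Itpr1, Calb1, Car8, Skor2, Pcp2. Of the 9 neighbouring pairs in that order, 7 differed by more than the SD of their log2 difference between libraries. Calb2 and Kirrel2 did not, at 0.28 ± 0.58 on the log2 scale (SD, n = 2), and their order turned round between the libraries. Car8 and Skor2 did not differ beyond their spread either, at 0.26 ± 0.43 (SD, n = 2). Itpr1 exceeded Calb1 by 0.13 ± 0.05 (SD, n = 2), but the 95% counting intervals of these neighbours overlapped.

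**Figure D1:**
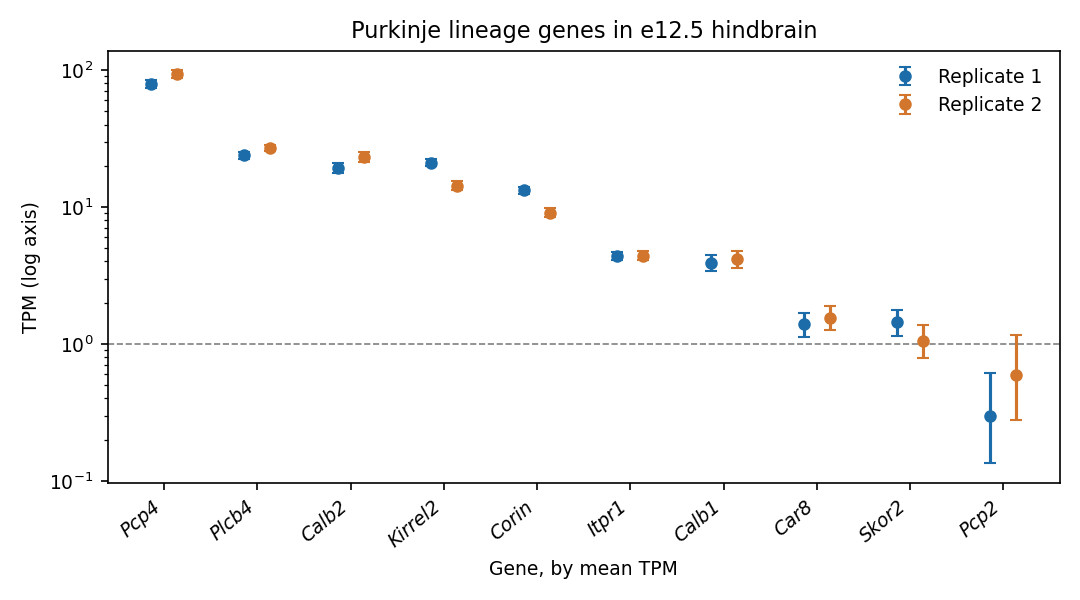
TPM (log axis) of the 10 Purkinje lineage genes in replicates 1 and 2, ordered by mean, with 95% counting intervals and a dashed line at 1 TPM. Pcp4 stands highest, at 78.97 and 93.08 TPM, and Pcp2 alone lies below the line, at 0.30 and 0.59 TPM.

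Between the libraries, 4 of the 10 genes differed beyond counting error by an exact binomial test with Benjamini-Hochberg adjustment over 19209 genes, beside 20.4% of all genes tested. Of these, 2 were higher in replicate 1, where the share over all genes was 9.68%, and 2 were higher in replicate 2, where it was 10.7%. Kirrel2 and Corin were the higher ones in replicate 1, and Pcp4 and Calb2 in replicate 2. With so few members, 4 of 10 is a description of these genes beside that background. When the spread between these libraries was added as a common dispersion in the edgeR exact test, 0 members passed after adjustment, beside 1.57% of all genes (0.625% higher in replicate 1 and 0.942% higher in replicate 2), and 2, Kirrel2 and Corin, had an unadjusted p under 0.05. The median size of the members' log2 ratio was 0.24, against 0.13 over all genes tested. Ratios are replicate 1 over replicate 2 of counts scaled by TMM, a normalisation that takes most genes as equal. Scaling by the ERCC spike-in RNAs instead raised the ratio of every gene by 0.37, so ratios below 0 by less than that change sign, among them Pcp4 (to 0.15) and Calb2 (to 0.12). Under that scaling 6 of the 10 passed the exact binomial test, each higher in replicate 1, and neither Pcp4 (adjusted p = 0.0558) nor Calb2 (adjusted p = 0.266) did. Of all 19209 genes it called 13010, 12684 higher in replicate 1 and 326 higher in replicate 2. The 6 of 10 is a description beside that background. Directions and calls below are those under TMM.

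**Figure D2:**
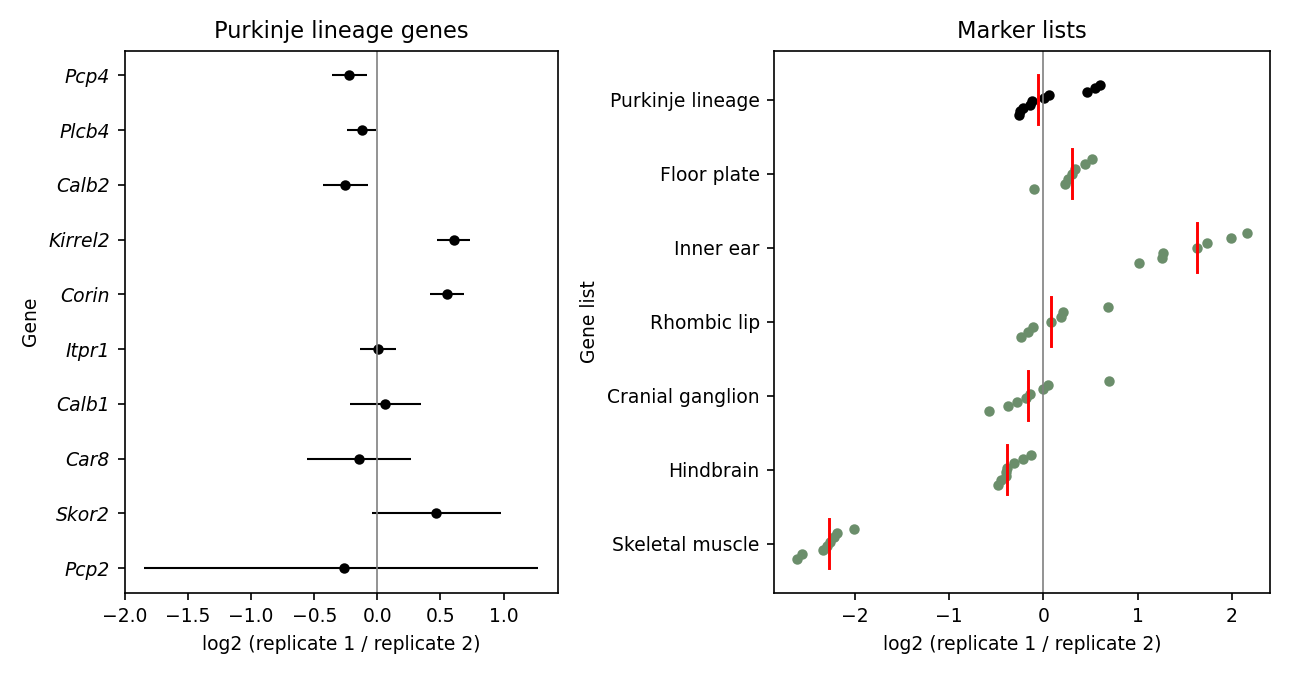
Log2 ratio of replicate 1 over replicate 2 (x axes) from counts scaled by TMM, on the left for each of the 10 genes with 95% counting intervals, and on the right for each gene of 7 lists with a red line at the list median. Kirrel2 at 0.60 and Corin at 0.55 lie to the right of 0, while Pcp4 at -0.22 and Calb2 at -0.25 lie to its left (to its right under spike-in scaling).

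Skor2, a Ski-family corepressor made by Purkinje cell precursors and needed for their differentiation in mice, was scarce in whole hindbrain. It had 83 counts and 1.44 TPM in replicate 1, and 56 counts and 1.05 TPM in replicate 2. The 95% counting intervals of these levels, 1.15 to 1.78 TPM and 0.795 to 1.37 TPM, overlapped. The log2 ratio of 0.46 (interval -0.04 to 0.98) did not pass the exact binomial test (adjusted p = 0.190). Its paralogue Skor1, a corepressor of other dorsal hindbrain and spinal cord neurons, stood far above it, with 19.61 TPM in the first replicate and 21.91 TPM in the second. That was 13.6-fold and 20.9-fold the level of Skor2. The founding members of the family were also abundant, Ski at 10.6 ± 0.580 TPM and Skil at 42.5 ± 0.785 TPM (SD, n = 2), and none of the 4 Ski-family genes passed the test between libraries.

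Kirrel2 (chr7:30447534-30457690, minus strand), an immunoglobulin-family adhesion protein made in GABAergic progenitor domains, had the largest absolute log2 ratio of the 10 in TMM-scaled counts (in the ratio of TPM values Pcp2, on few counts, had a larger one, -0.98). It had 1224 counts and 21.11 TPM in replicate 1, against 751 counts and 14.35 TPM in replicate 2. The level in replicate 1 was 1.52-fold higher (log2 0.60, interval 0.47 to 0.74, adjusted p = 6.29e-18 by the exact binomial test; 0.105 by the edgeR exact test). Nphs1, the related gene nephrin, lies head to head with Kirrel2 at a distance of 624 nt and is another known Ptf1a target. It had 4.65 TPM in replicate 1 and 3.77 TPM in replicate 2, and it too was higher in replicate 1 by the exact binomial test (log2 0.38, adjusted p = 0.0396), but not by the edgeR exact test (adjusted p = 1). Kirrel (13.91 and 14.11 TPM in replicates 1 and 2) and Kirrel3 (12.91 and 13.09 TPM) did not pass, with adjusted p = 0.526 and 0.632 by the exact binomial test. Ptf1a itself, given here because it is the known activator of Kirrel2, had 5.80 TPM in replicate 1 and 5.09 TPM in replicate 2 (log2 0.21, adjusted p = 0.457 by the exact binomial test).

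Corin (chr5:72300025-72504473, minus strand), a membrane serine protease best known for activating atrial natriuretic peptide in the heart, differed in the same direction. It had 1145 counts and 13.25 TPM in replicate 1, against 730 counts and 9.08 TPM in replicate 2, a 1.46-fold difference (log2 0.55, interval 0.41 to 0.68). It passed the exact binomial test (adjusted p = 3.41e-14) and not the edgeR exact test (adjusted p = 0.202). Corin is also a known surface marker of floor plate cells, the ventral midline of the neural tube. All 7 floor plate markers listed were at 1 TPM or more, their summed level was 366 TPM in replicate 1 and 275 TPM in replicate 2, and 4 of the 7 were higher in replicate 1 by the exact binomial test and 0 in replicate 2. The shares over all genes were 9.68% and 10.7%, and 0 of the 7 passed the edgeR exact test. The 3 not called were Foxa2 (log2 0.33), Shh (0.31) and Lmx1b (-0.10). Sulf1 and Spon1, both among the 4 called, gave the largest parts of the sum. Sulf1, a heparan sulphate editing enzyme, had 154.84 TPM in replicate 1 and 111.18 TPM in replicate 2, and Spon1, the secreted protein F-spondin, had 124.90 and 88.10 TPM. The median log2 ratio of the floor plate list was 0.31, and its part in the Corin or Kirrel2 difference was not tested.

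Both calcium-binding buffers were present, with calretinin well above calbindin. Calb2, calretinin, which in the adult cerebellum is known from granule and unipolar brush cells rather than Purkinje cells, had 486 counts and 19.25 TPM in replicate 1 and 540 counts and 23.19 TPM in replicate 2 (chr8:110137502-110168210, minus strand). It was higher in replicate 2 by the exact binomial test (log2 -0.25, interval -0.43 to -0.07, adjusted p = 0.0306) and not by the edgeR exact test (adjusted p = 1). Calb1, calbindin, the classical Purkinje marker, had 221 counts and 3.92 TPM in replicate 1 and 197 counts and 4.14 TPM in replicate 2 (chr4:15881264-15908064, plus strand). Its log2 ratio of 0.06 had an interval of -0.22 to 0.35 and an adjusted p = 0.836 by the exact binomial test, and the ratio of its TPM values had the opposite sign, at -0.079. Calb2 exceeded Calb1 4.91-fold in replicate 1 and 5.60-fold in replicate 2, more than the spread between libraries (2.39 ± 0.13 on the log2 scale, SD, n = 2). Cranial ganglion neurons also make calretinin. The summed level of 8 cranial ganglion markers was 205 TPM in replicate 1 and 230 TPM in replicate 2. By the exact binomial test 1 of 8 was higher in replicate 1 and 4 in replicate 2, beside 9.68% and 10.7% of all genes. The 1 higher in replicate 1, Sox10 (log2 0.69), was the single one to pass the edgeR exact test (adjusted p = 0.0455). The part of these markers in the Calb2 value was not tested.

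The small proteins Pcp4 and Pcp2 lay at the ends of the order by mean TPM. Pcp4 (chr16:96467606-96525793, plus strand), a short protein with an IQ motif that binds calmodulin, had 812 counts and 78.97 TPM in replicate 1, and 882.52 counts and 93.08 TPM in replicate 2. It was higher in replicate 2 by the exact binomial test (log2 -0.22, interval -0.36 to -0.08, adjusted p = 0.0115) but not by the edgeR exact test (adjusted p = 1). Its paralogue Pcp4l1 had 18.62 TPM in replicate 1 and 23.21 TPM in replicate 2 and was likewise higher in replicate 2 by the exact binomial test (adjusted p = 0.00425). Of the other IQ motif genes, Gap43, a growth cone protein, was higher still at 359 ± 7.90 TPM (SD, n = 2).

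Pcp2 (chr8:3623371-3625545, minus strand), a GoLoco protein that binds Gi and Go subunits and marks mature Purkinje cells almost alone, was near the detection floor. It had 7.6 counts and 0.30 TPM in replicate 1, and 8.73 counts and 0.59 TPM in replicate 2. The exact counting intervals ran from 0.135 to 0.616 TPM and from 0.278 to 1.16 TPM, and 3 counts, the limit that a count of 0 allows, correspond to 0.117 and 0.203 TPM. Counts this low could not show a difference between libraries (log2 -0.26, interval -1.85 to 1.27). Pcp2 also overlaps Pet100 on the opposite strand, at 27.59 and 26.81 TPM in replicates 1 and 2, and no source used here states if strand was kept, so the few Pcp2 counts are uncertain.

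None of the 3 calcium release genes passed either test between the libraries under TMM. With spike-in scaling Itpr1 (log2 0.37, adjusted p = 7.634e-07) and Plcb4 (log2 0.24, adjusted p = 4.54e-05) passed the exact binomial test as higher in replicate 1. Most genes did so under that scaling, 12684 of 19209. Plcb4 (chr2:135659011-136014593, plus strand), the phospholipase C beta used by many Purkinje cells, had 1260 counts and 23.90 TPM in replicate 1 and 1281 counts and 26.97 TPM in replicate 2. Its log2 ratio was -0.12 (interval -0.24 to -0.01) and its adjusted p was 0.114 by the exact binomial test. At the gene level it was the highest of 4 phospholipase C beta genes in both libraries, 1.20-fold and 1.26-fold above Plcb3 and 1.53-fold and 1.84-fold above Plcb1, while Plcb2 had 0.36 and 0.48 TPM. Coding transcripts held 56.0% and 61.5% of the Plcb4 TPM, that is 13.39 and 16.60 TPM, which is below the gene-level values of Plcb3 and Calb2. Its place above Calb2, whose 1 listed transcript was coding, therefore depends on counting its noncoding transcripts. The coding share of Plcb3 was not examined, so the order of the family by coding transcripts was not read. In counts, coding transcripts held 75.5% of Plcb4 in replicate 1 and 78.8% in replicate 2.

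Itpr1 (chr6:108213096-108551109, plus strand), the IP3 receptor of Purkinje cells, had 810 counts and 4.38 TPM in replicate 1 and 752 counts and 4.41 TPM in replicate 2. Its spread was the smallest of the 10, 4.40 ± 0.0212 TPM (SD, n = 2; log2 ratio 0.01, adjusted p = 0.992 by the exact binomial test). In TPM it was not the highest receptor gene of its family, since Itpr2 had 6.34 and 5.80 TPM, 1.45-fold and 1.32-fold more than Itpr1, and Itpr3 had 2.32 and 1.99 TPM. In counts Itpr2 was lower, with 314 and 358, and its TPM rests on an effective length of 2611 nt in replicate 1, against 9749 nt for Itpr1, so the order of the pair depends on the length assigned to each gene. Car8 (chr4:8143362-8239041, minus strand), a catalytically inactive carbonic anhydrase relative that binds Itpr1 and lowers its affinity for IP3, had 99 counts and 1.39 TPM in replicate 1 and 102 counts and 1.55 TPM in replicate 2. Its interval for the log2 ratio ran from -0.56 to 0.27 around -0.14. The other inactive relatives were higher in both libraries, Car11 at 12.4-fold and 13.3-fold and Car10 at 6.22-fold and 7.11-fold the level of Car8.

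The rest of the metabotropic calcium pathway was present in part. Of 18 genes listed, 14 were at 1 TPM or more in both libraries. By the exact binomial test 2, Gnaq and Ryr1, were higher in replicate 2 and 0 were higher in replicate 1. The shares over all genes were 10.7% and 9.68%. The highest were Homer3, a postsynaptic scaffold protein, at 65.6 ± 0.127 TPM, Atp2a2, the calcium pump of the internal stores, at 64.3 ± 1.46 TPM, and the G protein Gna11 at 61.5 ± 1.03 TPM (SD, n = 2). Ryr1, the release channel best known from skeletal muscle, had 0.83 TPM in replicate 1 and 1.42 TPM in replicate 2 and was the single gene of the 18 to pass the edgeR exact test (adjusted p = 0.0438). Skeletal muscle markers moved the same way, with a sum of 62.7 TPM in replicate 1 and 300 TPM in replicate 2 and all 8 higher in replicate 2, and their part in the Ryr1 value was not tested.

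Set beside lists of earlier and later genes of the lineage, the 10 genes had medians below those of the progenitor factors and above those of the mature genes in both libraries, a description with no test. All 6 progenitor factors of the ventricular zone were detected, with medians of 11.3 and 12.4 TPM in replicates 1 and 2. By the exact binomial test 0 of 6 passed, beside 20.4% of all genes. Among the 6 were Neurog2 at 37.6 ± 2.48 TPM and Neurog1 at 16.4 ± 1.91 TPM, and Olig2 was the lowest at 2.63 ± 0.396 TPM (SD, n = 2). All 10 differentiation factors were detected, with medians of 50.6 and 55.8 TPM, led by the adaptor Ldb1 at 111 ± 5.62 TPM, Bcl11a at 74.4 ± 2.74 TPM and Foxp1 at 72.3 ± 0.955 TPM (SD, n = 2). Of these 10, 2 were higher in replicate 1, Ldb1 and Esrrb, and 2 in replicate 2, Lhx1 and Ebf2, by the exact binomial test. The shares over all genes were 9.68% and 10.7%. Esrrb, an orphan nuclear receptor, was the lowest and had 2.56 TPM in replicate 1 and 1.38 TPM in replicate 2, a difference that also passed the edgeR exact test (log2 0.92, adjusted p = 0.0282).

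**Figure D3:**
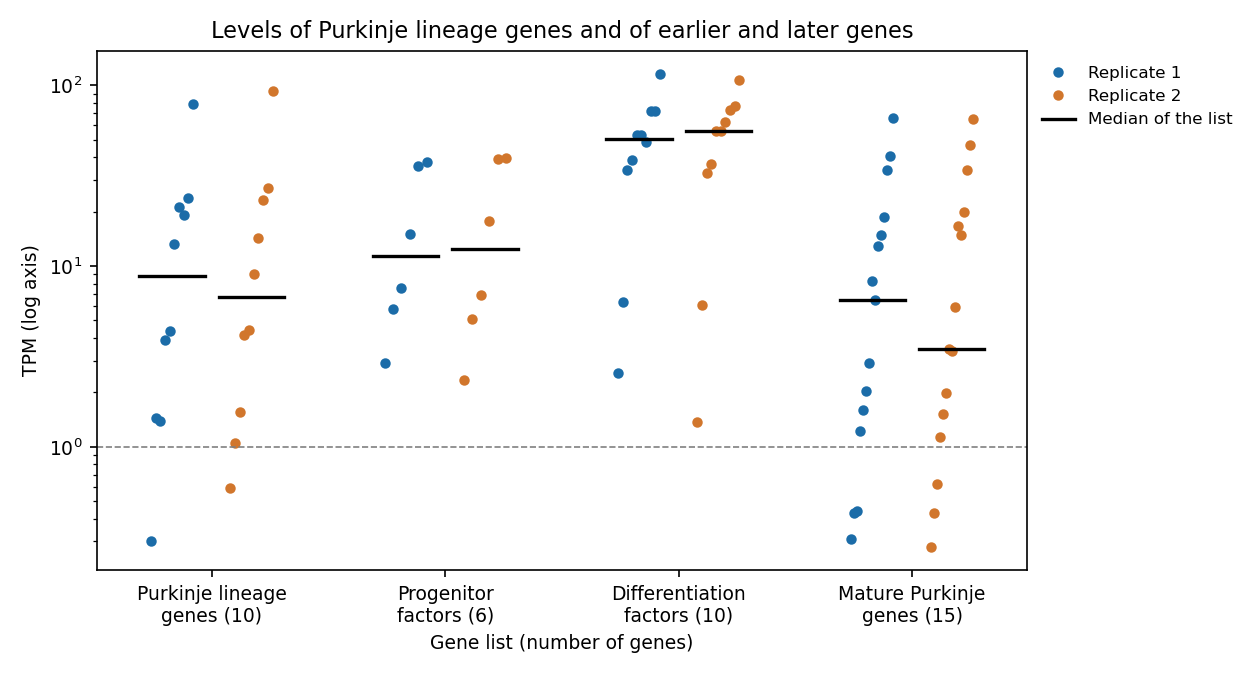
TPM (log axis) of each gene in the 10 Purkinje lineage genes, 6 progenitor factors, 10 differentiation factors and 15 mature Purkinje genes in replicates 1 and 2, with bars at the list medians and a dashed line at 1 TPM. The differentiation factors have medians of 50.6 and 55.8 TPM, above the other 3 lists.

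Of 15 mature Purkinje genes, 12 were at 1 TPM or more in both libraries, with medians of 6.48 TPM in replicate 1 and 3.47 TPM in replicate 2. The gap between these medians does not describe the list, whose median log2 ratio was 0.0047; Pvalb lay above the middle gene in replicate 1 and below it in replicate 2. Homer3 was the highest, followed by the GABA-making enzyme Gad2 at 43.5 ± 4.18 TPM (SD, n = 2). By the exact binomial test 1 of the 15, Pvalb, was higher in replicate 1, and 2, Ppp1r17 and Gad2, were higher in replicate 2. Over all genes these shares were 9.68% and 10.7%. Pvalb, the calcium buffer parvalbumin, had 8.29 TPM in replicate 1 and 3.39 TPM in replicate 2 and also passed the edgeR exact test (log2 1.30, adjusted p = 0.00123). Inner ear epithelium markers were higher in replicate 1 too, with a sum of 297 TPM against 128 TPM in replicate 2 and all 7 called by the exact binomial test, and their part in the Pvalb value was not tested. The median log2(TPM+1) of the mature genes lay 3.23 ± 0.624 below that of the differentiation factors (SD, n = 2), with differences of -2.79 in replicate 1 and -3.67 in replicate 2. Both lists hold genes that many other hindbrain neurons use.

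The transcript tables listed several transcripts for 5 of the members and 1 each for Itpr1, Pcp4, Calb2, Car8 and Skor2. For Itpr1 and Pcp4 the isoform percentage was therefore 100 in both libraries by construction, and no splice choice could be read, although GENCODE M21 annotates 13 transcripts for Itpr1 and 4 for Pcp4. Corin split nearly alike in the libraries, with Corin-202 holding 73.34% and 74.06% and Corin-201 25.57% and 25.94% in replicates 1 and 2. Kirrel2-201 held 71.38% and 69.10% and Kirrel2-204 19.03% and 23.19%. The coding Calb1-201 held 67.38% of Calb1 in replicate 1 and 60.14% in replicate 2, and the retained-intron Calb1-202 held 32.62% and 34.29%. That retained-intron share rested on 14.59 and 14.94 counts, and the coding transcript held 93.4% and 91.1% of the gene's counts. Plcb4 was spread over 15 transcripts, of which Plcb4-202 held 25.67% and 19.22% and Plcb4-213 held 20.83% and 22.80%. Plcb4-201 held 8.10% in replicate 1 and 15.36% in replicate 2. The few Pcp2 counts went to Pcp2-202 in replicate 1, and to Pcp2-205 (61.18%) and Pcp2-207 (38.82%) in replicate 2, so no main Pcp2 transcript could be named. These percentages come from the authors' division of shared fragments and have no depth of their own. From posterior mean TPM the mean share of Corin-202 was 67.1% against 73.7%, and that of Kirrel2-201 64.7% against 70.2%. Both moves exceeded the spread between libraries, as did smaller ones of Corin-201 and Plcb4-213. The other main transcripts of Corin, Calb1, Kirrel2 and Plcb4 stayed within it.

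**Figure D4:**
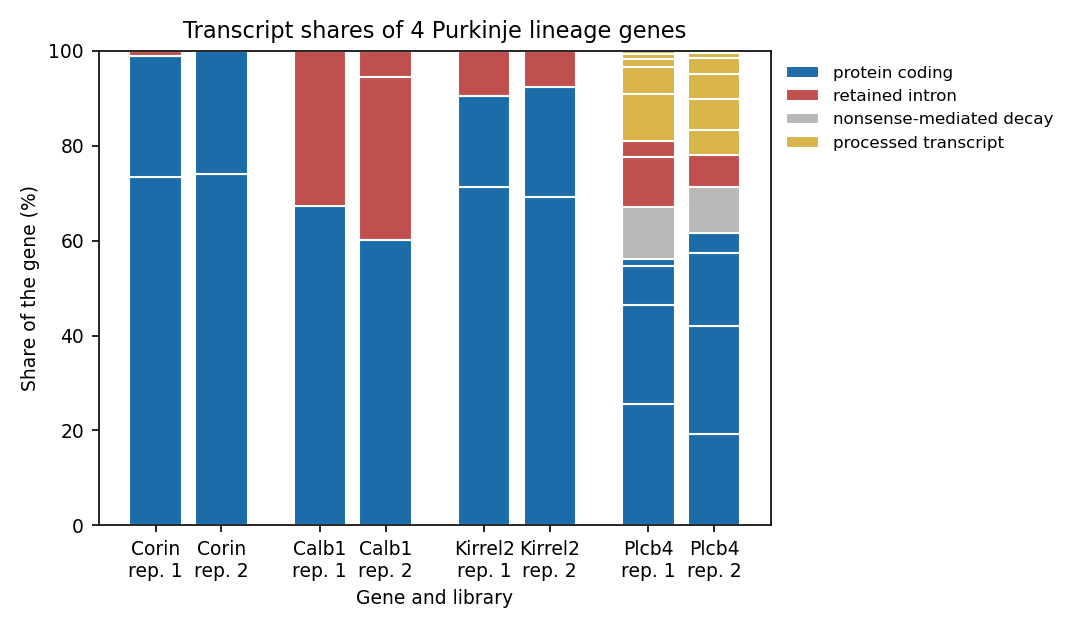
Isoform percentage (y axis) of each listed transcript of Corin, Calb1, Kirrel2 and Plcb4 in replicates 1 and 2, stacked to 100% and coloured by GENCODE transcript type. Corin-202 holds 73.34% and 74.06% of Corin, while the share of Plcb4-201 is 8.10% in replicate 1 and 15.36% in replicate 2.

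Depth was similar, with totals of 31633169 (replicate 1) and 29766460 (replicate 2) expected counts. The 10 genes held 0.0201% and 0.0186% of the Ensembl gene counts. Of 8 hindbrain markers, 7 were at 1 TPM or more and 7 were higher in replicate 2 by the exact binomial test, beside 10.7% of all genes, and 0 of the 8 passed the edgeR exact test. The median log2 ratio of that list was -0.39, close in size to the spike-in shift of 0.37. By contrast 2 of 8 forebrain markers reached 1 TPM. Of 6 markers of the cerebellar anlage and isthmus, 5 reached it, and En2 was the exception at 0.54 and 0.70 TPM. All 7 markers of the granule cell and rhombic lip lineage and all 6 of the cerebellar interneuron lineage were detected, so the same libraries hold RNA of other cerebellar lineages.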

How the data were processed

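Expression was measured in 2 total RNA libraries of e12.5 hindbrain, replicates of 1 group per the labels. For each, the authors deposited a gene and a transcript table on mm10, with GENCODE M4 named in the submitters' notes. The series title marks the series as superseded, and the replacing data were not used here. Aligner, quantifier and strandedness: not given in the sources used here. Gene values were deposited in the form of expected counts, estimated fragments that need not be whole. The deposited TPM values share 1 total over genes and spike-ins, which took 8.39% and 10.9% of it in replicates 1 and 2. The deposited FPKM values were not used. The deposited isoform percent is a transcript's share of its gene. The 26248 numbered entries that name no gene held 0.000107% and 0.000114% of the counts and stayed out of tests. Names came from GENCODE M21, which matched 42462 Ensembl identifiers and not 884.

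Expected counts were rounded and scaled by TMM (edgeR 4.0.16, R 4.3.3) over genes with 10 or more summed counts, with factors of 0.99969 and 1.00031. The test was exact binomial and two-sided (scipy 1.17.1), with Benjamini-Hochberg adjustment and a threshold of 0.05, which allows for counting error only. The edgeR exact test added a common dispersion from an intercept-only fit to the same libraries, a coefficient of variation of 9.02%. Both tests compare 2 libraries and no conditions. DESeq2 1.42.0 size factors and spike-in scaling were alternatives. Both tests were run on simulated data with a similar spread between libraries: both recovered large changes, but the exact binomial test also called many unchanged genes, so its calls are not evidence beyond counting error, while the edgeR exact test missed many of the smaller changes. Intervals are exact 95% counting intervals, and fragments amplified without molecular identifiers need not be independent. Detection means 1 TPM or more in both libraries.

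The members, the 25 other lists and the tests were chosen with earlier results of these data known. All 10 members are named, and from each other list the 3 genes of highest mean TPM and the lowest may be. Every gene of the families may be given. A few listed genes are not reported here by name. Genes named as called, as not called beside called ones, or as a known regulator were chosen after their values were seen. All 170 listed genes were matched.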

Additional observations from a re-analysis of the deposited data

How the results depend on the processing

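No paired analysis was possible because the series holds 1 group. Leaving out a library cannot be applied to a ratio between the libraries. With either library alone the median member level was 6.75 or 8.82 TPM, 9 members were detected, and the mature minus differentiation difference was -3.67 or -2.79. Members called numbered 4 by the exact binomial test and 0 by the edgeR exact test with a common dispersion. A threshold of 5 TPM left 5 members detected, against 9 at 1 TPM. The posterior mean TPM gave 10, with Pcp2 at 1.23 TPM, above its counting intervals in both libraries. With detected genes only, the mature minus differentiation difference was -2.31, against -3.23 with all genes. DESeq2 size factors and no filter on low counts kept the direction and call of all 10 ratios. Scaling by spike-ins moved the median of all genes by 0.37 on the log2 scale. It turned the ratios of Calb2 to 0.12, Pcp2 to 0.11, Pcp4 to 0.15, Car8 to 0.22 and Plcb4 to 0.24, and relative to that shift the members kept their values. It called 6 members, all higher in replicate 1, adding Skor2 (0.83), Calb1 (0.43), Itpr1 (0.37) and Plcb4 and losing Pcp4 and Calb2. Of all 19209 genes tested it called 13010, and 97.5% of those were higher in replicate 1. The 6 members called are thus no result particular to these genes. The ratio of TPM values turned Calb1 to -0.079 and Itpr1 to -0.0098, moved Pcp2 to -0.98, and was chosen after seeing the data. Counts limit Pcp2, Skor2 and Car8 most.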

Other observations

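Genes around Corin's best-known substrate were examined as a list of 8. Of these, 7 were at 1 TPM or more in both libraries, and Corin was the single gene that passed the exact binomial test. The receptor Npr2 and its ligand Nppc stood highest beside Corin, Npr2 at 25.5 ± 0.757 TPM and Nppc at 12.4 ± 0.672 TPM (SD, n = 2). Nppa, the atrial natriuretic peptide that Corin activates in the heart, had 1.54 TPM in replicate 1 and 1.32 TPM in replicate 2, and its receptor Npr1 had 3.13 and 3.27 TPM. Nppb was lowest, with 6 counts in replicate 1 and 0 in replicate 2.

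In the GoLoco family of Pcp2, the relatives that take part in spindle orientation were abundant while Pcp2 was not. Gpsm1 had 109 TPM in replicate 1 and 101 TPM in replicate 2, and Gpsm2 had 55.4 and 53.7 TPM. Gpsm3 had 2.89 and 3.47 TPM, and Rgs14 had 0.29 and 0.63 TPM. Among the calcium buffers, Scgn had 3 counts in replicate 1 and 2 counts in replicate 2.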
